A study of Mus musculus with 6 samples.

Results

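The 2 subsets of conventional dendritic cells (cDC) of the mouse spleen, CD8+ cDC and CD8- cDC, were compared gene by gene. The comparison used the 4 cDC arrays of a set of 6 Illumina bead arrays, chosen by their labels: CD8+ cDC replicates 1 and 2 against CD8- cDC replicates 1 and 2. Each gene was read from 1 probe, the one with the highest mean over all 6 arrays, which gave 19057 genes from 45281 probes. All groups were unmanipulated spleen cells of strain C57/B6, with no treatment, transgene or time point in the labels. The labels give no age of the mice, no gate for the cells and no statement that replicates 1 and 2 were separate animals, so p-values measure the spread between these arrays only. The remaining 2 arrays held splenic macrophages, which entered the fit for its estimate of spread and are shown beside some genes for their level.

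Conventional dendritic cells take up antigen, carry it on MHC molecules and prime T cells. In mouse spleen the CD8+ subset depends on the transcription factors Irf8 and Batf3, takes up dying cells and is known for presenting their antigens to CD8 T cells, the process called cross-presentation. The CD8- subset depends in large part on Irf4, Relb and Notch2 signals and is known for presenting antigen to CD4 T cells. Spleen is also the site where both subsets lie close to blood-borne particles, red pulp macrophages and B cells.

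The labels were borne out by the defining markers. Levels are log2 signals, given in the order replicate 1 and replicate 2. Xcr1, the receptor for the chemokine Xcl1 that marks the CD8+ subset, stood at 10.10 and 10.02 in CD8+ cDC against 6.09 and 5.11 in CD8- cDC (at least 20.9-fold, adjusted p = 0.0344). Clec9a, a receptor for exposed actin of dead cells, stood at 12.41 and 12.60 against 9.08 and 8.91 (11.4-fold, adjusted p = 0.0169). Both CD8- arrays thus lay more than 3 log2 units under both CD8+ arrays for these genes. Cd207, the lectin langerin, stood at 10.32 and 10.50 against 5.78 and 5.23 (at least 29.7-fold, adjusted p = 0.0479). Clec4a4, the inhibitory lectin recognised by the antibody 33D1 on CD8- cDC, ran the other way at 11.64 and 11.65 in CD8- cDC against 6.24 and 8.02 in CD8+ cDC (22.9-fold, adjusted p = 0.0479), and its call was lost with replicate number as a block (adjusted p = 0.057 with the replicate block). Where an array of the dimmer side was at or under a background level of 5.25 log2, the fold is a lower bound, for which that array was set to the background level.

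Of 23 measured genes in a list of CD8+ cDC markers, 9 were called higher in CD8+ cDC and 0 in CD8- cDC, with a median log2 difference of 2.62. A gene was called when its adjusted p in limma was under 0.05, and over all genes 1.29% were called higher in CD8+ cDC and 0.756% higher in CD8- cDC. The 9 were Cd207, Xcr1, Cadm1, Clec9a, Tlr11, Ppt1, Naaa, Tlr12 and Cd8b1. Cadm1, an adhesion molecule of this subset, stood at 11.62 and 11.76 against 8.22 and 7.27 (15.4-fold, adjusted p = 0.0206). Cd8b1, the beta chain of CD8, stood at 11.85 and 12.30 against 10.46 and 10.39 (3.14-fold, adjusted p = 0.0288). Macrophages read 10.47 and 10.55 on this probe, level with CD8- cDC. Its other probes differed in the same direction by 1.64 and 2.76 log2 but were not called (adjusted p = 0.385 and 0.413). Cd8a itself was read by a dim probe at 5.67 and 4.96 against 4.38 and 4.51, and was not called (adjusted p = 0.263). Itgae, the CD103 integrin chain, had a wider gap at 11.68 and 11.63 against 7.41 and 6.65, yet was not called (adjusted p = 0.0805), with macrophages at 7.83 and 5.56. Of its 6 probes, 3 dimmer ones were called in the same direction, with log2 differences of 3.19, 3.24 and 4.01 (adjusted p = 0.0171, 0.0186 and 0.0154).

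The transcription factor Irf8 stood at 13.28 and 12.77 in CD8+ cDC against 11.13 and 10.36 in CD8- cDC and lay just outside the threshold (adjusted p = 0.0528), passing with the replicate block (adjusted p = 0.036 with the replicate block). Batf3 was nearly level between the subsets at 11.26 and 11.28 against 11.36 and 11.25 (adjusted p = 0.997). Of 25 CD8- cDC markers, 4 were called higher in CD8- cDC and 0 in CD8+ cDC, with a median of -0.93. Cd4, which marks most CD8- cDC of spleen, stood at 7.80 and 8.31 in CD8- cDC against 5.54 and 5.16 in CD8+ cDC (at least 6.32-fold, adjusted p = 0.0293). Esam, an adhesion molecule of the Notch2-dependent cells, stood at 11.42 and 11.73 against 9.13 and 9.83 (4.27-fold, adjusted p = 0.0482), and the integrin chain Itgam, close to background throughout, at 5.54 and 5.90 against 4.51 and 4.51 (at least 1.38-fold, adjusted p = 0.0394). Sirpa, the receptor often used to sort these cells, stood at 13.21 and 13.63 against 10.87 and 12.01 and was not called (adjusted p = 0.128). Irf4 at 9.61 and 9.69 against 8.97 and 8.82 was not called either (adjusted p = 0.406). Zbtb46, a factor of all cDC, was alike in all 4 arrays, at 9.68 and 9.49 against 9.33 and 9.48, with macrophages at 6.17 and 6.47.

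Markers of other cells differed between the arrays of a subset. Over 26 markers of red pulp and other macrophages, the mean level was 6.77 and 8.41 in CD8+ cDC replicates 1 and 2, 8.29 and 6.99 in CD8- cDC replicates 1 and 2, and 11.82 and 12.05 in macrophages. The higher levels therefore lay in CD8+ replicate 2 and CD8- replicate 1, across the replicate numbers. C1qb, a complement component made by macrophages, stood at 6.68 and 10.57 in CD8+ cDC against 10.08 and 7.75 in CD8- cDC, against 14.01 and 14.10 in macrophages. Of the 26 genes, 1 was called higher in CD8+ cDC (Treml4) and 0 in CD8- cDC, and the median difference was 0.09.

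B cell markers leaned to CD8+ cDC: 17 of 18 had a positive difference, the median was 0.68 and 0 were called either way, with mean levels of 7.92 and 7.10 against 7.02 and 6.31. Cd79b, part of the B cell receptor, stood at 11.40 and 9.93 against 10.42 and 9.64, and Ms4a1, which encodes CD20, at 6.50 and 6.36 against 5.68 and 5.23. Over 19 markers of plasmacytoid dendritic cells the mean level was 8.64 and 7.56 against 7.48 and 7.50, the median 0.81, and 1 gene (Lefty1) was called higher in CD8+ cDC. Siglech, the lectin that defines plasmacytoid cells, was high in 1 array only, at 11.42 and 9.05 against 9.20 and 9.34. T and NK cell markers had means of 6.10 and 5.48 against 6.37 and 5.95, with 1 of 23 called higher in CD8- cDC (Tbx21), while the T cell receptor chain Cd3e stood at 6.90 and 5.28 against 7.22 and 6.09. Of 24 monocyte markers 1 was called each way, and of 26 neutrophil and 21 erythroid and platelet markers 0 were called by limma. At an unadjusted p under 0.05, 6 B cell markers were higher in CD8+ cDC and 1 in CD8- cDC, 1 neutrophil marker was higher in CD8- cDC, and 1 erythroid or platelet marker was higher each way. The part of these cells in the differences below was not tested, and in bulk samples fewer cells of a type and less RNA per cell cannot be told apart.

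**Figure D1:**
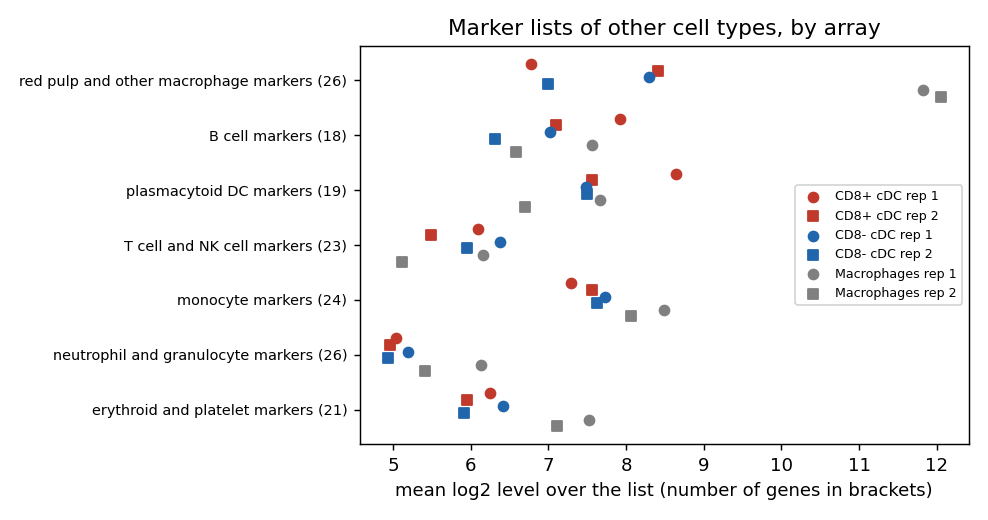
Mean log2 level over each marker list of another cell type (horizontal axis; number of genes in brackets) for each of the 6 arrays; circles are replicate 1 and squares replicate 2, red CD8+ cDC, blue CD8- cDC, grey macrophages. Macrophage markers were higher in CD8+ replicate 2 (8.41) and CD8- replicate 1 (8.29) than in the other 2 cDC arrays, and plasmacytoid markers were highest in CD8+ replicate 1 (8.64).

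Between the subsets, 245 of 19057 genes were called higher in CD8+ cDC and 144 higher in CD8- cDC (limma, Benjamini-Hochberg over all probes). The median size of a called difference was 1.61 log2 on the CD8+ side, with a range from 0.61 to 5.64. On the CD8- side the median was 1.47 and the range 0.67 to 4.51. Large differences were more numerous on the CD8+ side, where 30 called genes differed by at least 3 log2 units against 9 on the CD8- side. In every called gene both arrays of one subset lay above both arrays of the other, as they did in 8093 of all 19057 genes. Of the 9018 genes above background on at least 2 cDC arrays, the typical difference between replicates was 0.27 in CD8+ cDC and 0.25 in CD8- cDC (median of absolute log2 values).

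By replicate number, CD8+ minus CD8- in replicate 1 and in replicate 2 had a Pearson correlation of 0.683 across those 9018 genes, which are not independent replicates. With the number as a block in the fit, 240 genes (1.26%) were called higher in CD8+ cDC and 139 (0.729%) higher in CD8- cDC. Of the 245 and 144 genes called without the block, 178 and 93 were also called with it. Below, the adjusted p with the block is printed where it changes the call.

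The calls need both arrays of each subset. With any 1 of the 4 cDC arrays left out, 0 genes passed limma's adjusted threshold in either direction, and the lowest adjusted p was 0.0615 to 0.0953. At an unadjusted p under 0.05, 1133 to 1528 genes were then higher in CD8+ cDC and 1135 to 1354 higher in CD8- cDC, against 1438 and 1368 with all arrays. Without either macrophage array 116 and 59 genes were called. All 245 and 144 called genes kept their direction in each of these 6 fits. That was fixed in advance, since the arrays of called genes do not overlap between the subsets. Without CD8+ replicate 2 and CD8- replicate 1, the arrays with more macrophage marker signal, 0 genes passed (1039 and 1160 at an unadjusted p under 0.05).

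**Figure D2:**
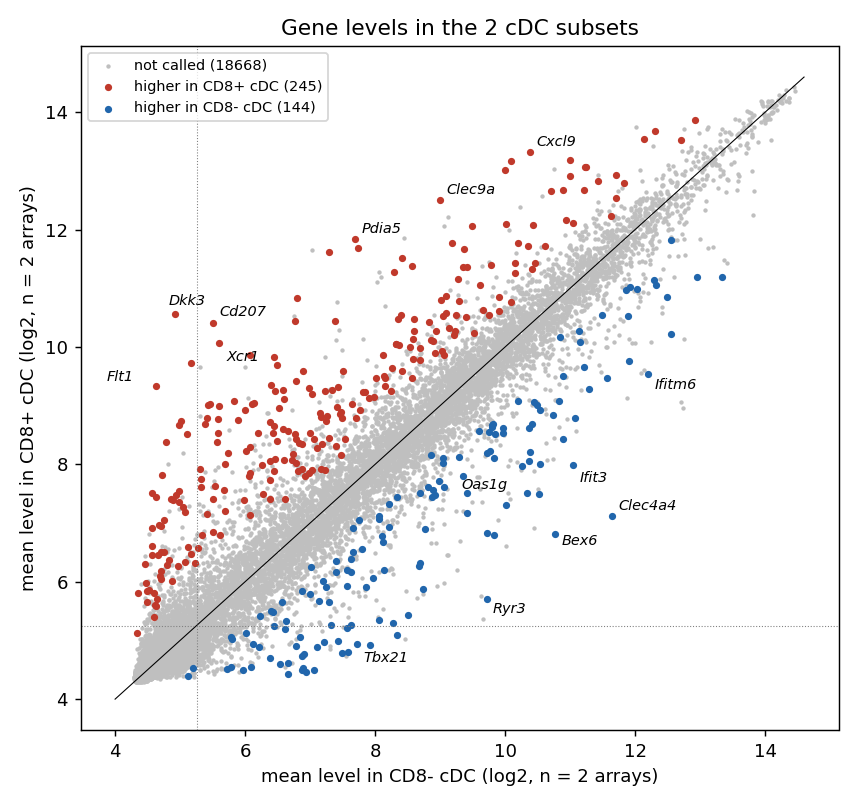
Mean log2 level of each of 19057 genes in CD8- cDC (horizontal) and CD8+ cDC (vertical), n = 2 arrays each; red and blue points are the 245 and 144 called genes, grey points the rest, the solid line marks equal levels and dotted lines the background level. The called genes reach farther from the line on the CD8+ side, where Dkk3 differed by 5.64 log2.

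**Figure D3:**
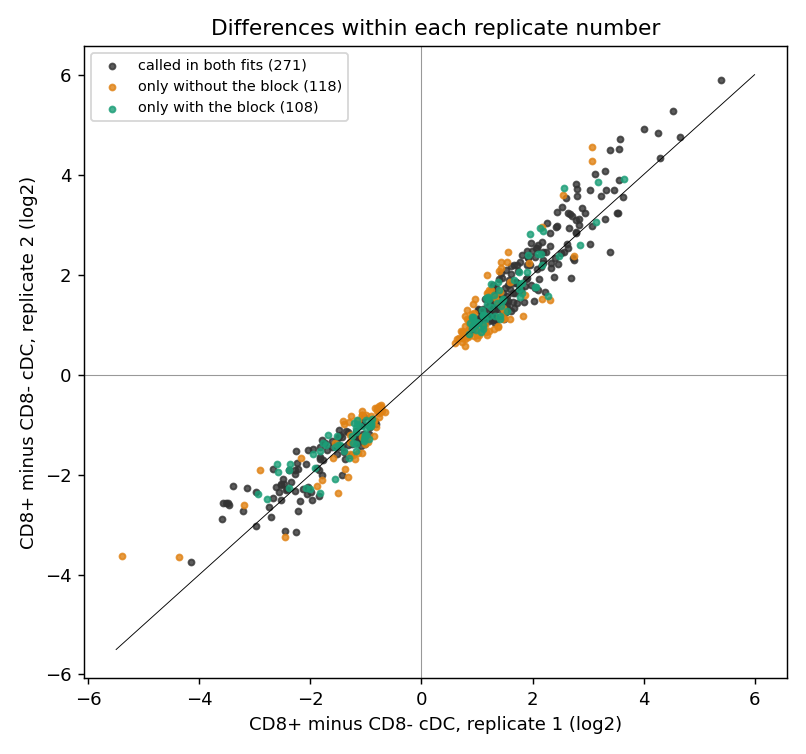
Difference of CD8+ minus CD8- cDC (log2) within replicate 1 (horizontal) and within replicate 2 (vertical) for genes called in either fit; dark points were called with and without the replicate block (271), orange without it only (118) and green with it only (108). All points lie in the 2 quadrants where both replicates have the same sign, which the choice of called genes largely sets in advance.

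The genes with the largest differences on the CD8+ side outside the marker lists included a secreted factor, a growth factor receptor, a lipid phosphatase and several regulators of the actin cytoskeleton. Dkk3, a secreted member of the Dickkopf family, had the largest fitted difference at 10.82 and 10.33 in CD8+ cDC against 5.42 and 4.44 in CD8- cDC (at least 37.6-fold, adjusted p = 0.0195). Flt1, a receptor for vascular endothelial growth factor, stood at 9.42 and 9.23 against 4.77 and 4.47 (at least 16.9-fold, adjusted p = 0.0251). Both were at or near background in CD8- cDC and clearly above it in both CD8+ arrays. P3h2, a prolyl 3-hydroxylase that modifies collagen, stood at 9.60 and 9.84 against 5.33 and 5.01 (at least 21.5-fold, adjusted p = 0.0116). Plpp1, a membrane phosphatase that removes phosphate from lysophosphatidic acid and related lipids, stood at 10.92 and 10.76 against 7.35 and 6.25 (16.4-fold, adjusted p = 0.0249), and macrophages were as high as CD8+ cDC (10.73 and 11.03). Hk3, a hexokinase of myeloid cells, shared that pattern, at 10.20 and 10.67 against 7.12 and 6.40 with macrophages at 10.98 and 11.83 (12.8-fold, adjusted p = 0.0335, adjusted p = 0.0513 with the replicate block). A further lipid phosphatase, Plpp2, was also called (2.6-fold, adjusted p = 0.0442).

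Genes of actin remodelling and adhesion formed part of the same top group, noticed after the values were seen. Synpo, the actin-binding synaptopodin, stood at 8.39 and 8.96 in CD8+ cDC against 5.08 and 4.89 in CD8- cDC (at least 10.7-fold, adjusted p = 0.0169). Sh3pxd2b, an adaptor of podosomes, stood at 8.56 and 9.01 against 5.53 and 5.31 (10.3-fold, adjusted p = 0.0154). Fgd6, an exchange factor for the GTPase Cdc42, stood at 9.23 and 8.74 against 5.68 and 5.51 (10.5-fold, adjusted p = 0.0171). Lima1, an actin-binding LIM protein, was 9.21-fold higher (adjusted p = 0.0257), but macrophages stood at 10.22 and 9.86, level with CD8+ cDC at 9.44 and 9.94. In a separate list of 55 actin and podosome proteins, which does not hold Synpo, Sh3pxd2b, Fgd6 or Lima1, 2 were called higher in CD8+ cDC (Myo6 and Myo9a), 0 in CD8- cDC, and the median was -0.05.

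Several other genes among the 20 largest differences were low in CD8- cDC, and some of them in macrophages too. Gpr33, an orphan receptor of the G protein-coupled kind, stood at 8.43 and 8.94 against 5.64 and 5.13, with macrophages at 5.11 and 4.95 (at least 9.41-fold, adjusted p = 0.0195). Sema4f, a membrane semaphorin, stood at 8.71 and 9.32 against 5.24 and 5.62 and at 4.70 and 4.53 in macrophages (at least 11.9-fold, adjusted p = 0.0171). Slco3a1, an organic anion carrier, stood at 9.91 and 9.74 against 6.38 and 6.50 (10.4-fold, adjusted p = 0.0119) and Atg9b, an autophagy protein, at 8.89 and 9.28 against 6.09 and 5.56 (9.57-fold, adjusted p = 0.0206). The macrophage arrays lay at or under the CD8- level for Slco3a1 (6.15 and 5.85) and for Atg9b (4.93 and 4.54). Laptm4b, of lysosomal membranes, was at least 8.72-fold above CD8- cDC (adjusted p = 0.0226), with macrophages at 8.09 and 7.59 near CD8+ cDC at 8.68 and 8.08, and Ttc39a, a tetratricopeptide repeat protein, 20-fold (adjusted p = 0.0467). The uncharacterised loci 4930455G09Rik (at least 11.2-fold, adjusted p = 0.00991) and Gm3336 (at least 9.65-fold, adjusted p = 0.0121) were also in the group, the first with macrophages at 9.38 and 9.53, above CD8+ cDC, and the second with macrophages at 5.11 and 4.89.

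**Figure D4:**
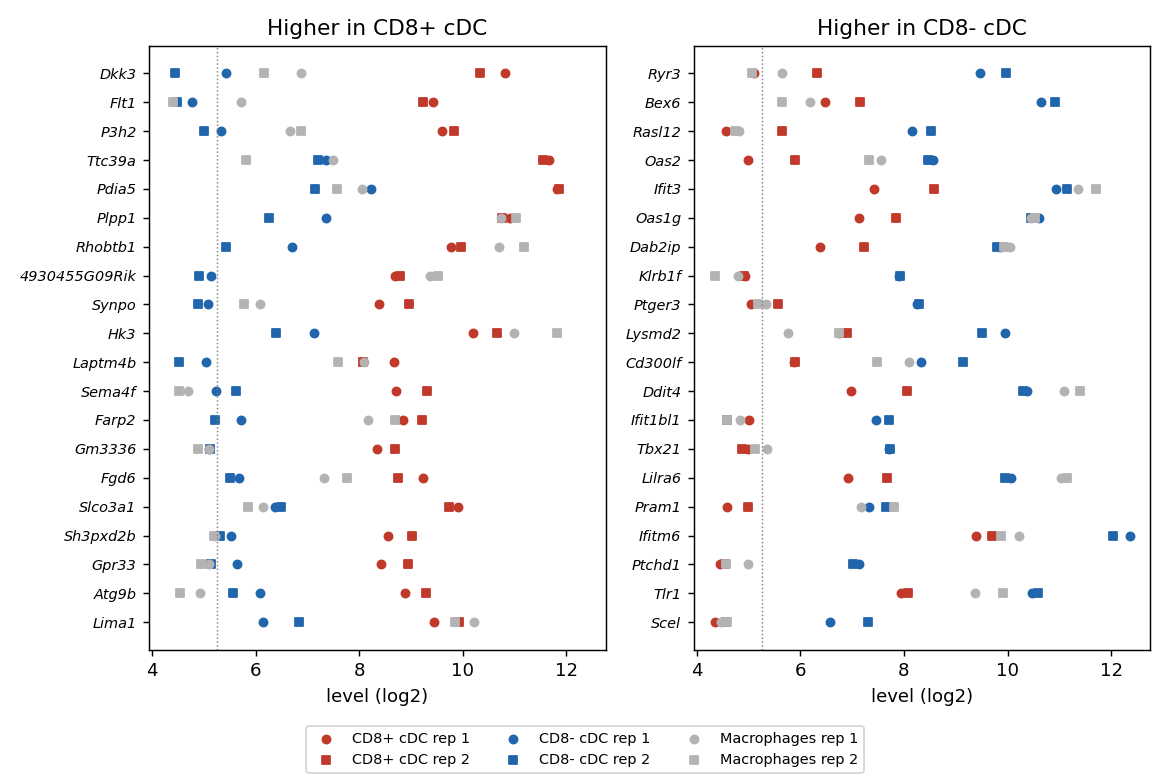
Log2 level on each of the 6 arrays for the 20 called genes with the largest difference on each side outside the marker lists; red CD8+ cDC, blue CD8- cDC, grey macrophages, circles replicate 1, squares replicate 2, dotted line the background level. The 40 genes were chosen so that red and blue points do not overlap. Macrophages lie with the brighter subset in some (Plpp1, Oas1g) and with the dimmer in others (Flt1, Tbx21).

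Among sensors and signals to T cells, CD8+ cDC were higher in several genes that face microbes, interferons and lymphocytes. Tlr11 and Tlr12 encode the endosomal receptors for profilin of protozoa. Tlr11 stood at 11.18 and 11.87 in CD8+ cDC against 8.28 and 8.54 in CD8- cDC (8.64-fold, adjusted p = 0.0206), and Tlr12 at 7.28 and 7.43 against 4.89 and 5.09 (at least 4.29-fold, adjusted p = 0.0219). Tlr3, the receptor for double-stranded RNA, at 8.09 and 8.31 against 5.52 and 4.58, was called only with the replicate block (adjusted p = 0.0524, adjusted p = 0.0472 with the replicate block). Ifnlr1, the receptor chain for type III interferon, stood at 8.21 and 8.19 against 5.70 and 5.76 (5.54-fold, adjusted p = 0.0303). In CD8- cDC and macrophages (5.51 and 4.76) Ifnlr1 was close to background. In the list of 30 pattern recognition receptors, 2 were called higher in CD8+ cDC and 1, Tlr1, in CD8- cDC, with a median of -0.16. With the replicate block the list gave 3 and 5, and at an unadjusted p under 0.05 it gave 6 and 11.

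Chemokine genes called between the subsets were all on the CD8+ side: 2 of 28 chemokines and 2 of 23 chemokine receptors, with 0 called in CD8- cDC. The 2 receptors were Cxcr3 and the marker Xcr1 given above. At an unadjusted p under 0.05 in limma, 5 chemokines were higher in CD8+ cDC and 3 in CD8- cDC. For the receptors these counts were 3 and 4. Cxcl9, which attracts T cells through Cxcr3, was one of the brightest called genes at 13.06 and 13.60 in CD8+ cDC against 10.35 and 10.42 in CD8- cDC (7.69-fold, adjusted p = 0.0344). Cxcr3 itself stood at 9.44 and 9.40 against 7.19 and 6.37 (6.25-fold, adjusted p = 0.0344). The membrane-bound chemokine Cxcl16 differed less, at 11.28 and 11.58 against 10 and 10.31 (2.42-fold, adjusted p = 0.0455). The medians of the chemokine and receptor lists were 0.04 and 0.00, with 16 of 28 and 12 of 23 differences positive.

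Of 77 interleukins and receptors taken by symbol, 1 was called each way, and of 45 in a narrower list 1. The CD8- gene was Il31ra, a chain of the interleukin 31 receptor, at 7.05 and 7.39 in CD8- cDC against 5.09 and 4.88 in CD8+ cDC (at least 3.91-fold, adjusted p = 0.0169). The CD8+ gene was Il15, a survival signal for NK and memory CD8 T cells, at 10.41 and 10.56 against 8.32 and 8.87 (3.7-fold, adjusted p = 0.0341). Cd86, a ligand of CD28 on T cells, stood at 13.02 and 13.12 against 11.16 and 11.35 (3.52-fold, adjusted p = 0.0206). Treml4, a receptor that binds dead cells, stood at 11.04 and 11.28 against 9.44 and 9.11 (3.71-fold, adjusted p = 0.0206). Macrophages were at or above the CD8+ level for all 3 of these genes: Il15 at 10.81 and 10.96, Cd86 at 13.36 and 13.68 and Treml4 at 12.35 and 12.36. Ido1, the enzyme that breaks down tryptophan, was above background in CD8+ cDC only, at 7.49 and 7.46 against 4.76 and 5.12 in CD8- cDC and 4.70 and 4.44 in macrophages (at least 4.66-fold, adjusted p = 0.0169). Cd40 (11.17 and 11.41 against 11.11 and 11.67, adjusted p = 0.991) and Cd80 (9.43 and 9.86 against 9.06 and 9.51, adjusted p = 0.739), further signals to T cells, were not called.

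Genes for folding and glycosylation of proteins in the endoplasmic reticulum leaned to CD8+ cDC. This family was put together after the values were seen: 9 of 50 measured genes were called higher in CD8+ cDC and 0 in CD8- cDC, with a median of 0.22 and 37 positive differences. With the replicate block 6 of the 50 were called. Pdia5, a protein disulfide isomerase, stood far ahead of the rest at 11.82 and 11.85 in CD8+ cDC against 8.24 and 7.14 in CD8- cDC (17.7-fold, adjusted p = 0.0255), and all 3 of its probes were called. Pdia4, of the same family, stood at 10.30 and 10.33 against 9.11 and 9.16 (2.27-fold, adjusted p = 0.0169). Pdia3, which helps load peptide on MHC class I, stood at 12.85 and 12.75 against 11.85 and 11.82 (1.95-fold, adjusted p = 0.0315, adjusted p = 0.0549 with the replicate block). The lectin Mlec was 2.93-fold higher (adjusted p = 0.0195), and the translocon partner Sec63 1.99-fold (adjusted p = 0.0228), again with all 3 probes called. The chaperone gene Hspa5 stood at 10.51 and 9.34 against 9.32 and 8.96 and was not called (adjusted p = 0.626).

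Lysosomal proteins gave 6 of 40 called higher in CD8+ cDC and 0 in CD8- cDC, with a median of 0.15, and 5 of 40 with the block. Ppt1, which removes fatty acids from proteins, stood at 13.09 and 12.94 in CD8+ cDC against 10.02 and 9.97 in CD8- cDC (8.11-fold, adjusted p = 0.0195). Gusb, the lysosomal beta-glucuronidase, stood at 13 and 13.38 against 11.09 and 10.90 (4.57-fold, adjusted p = 0.0184), with all 4 probes called. Arsb, an arylsulfatase, stood at 12.09 and 12.08 against 10.13 and 9.88 (4.23-fold, adjusted p = 0.0397). For Ppt1, Gusb and Arsb the macrophage arrays lay near or under CD8- cDC, at 10.78 and 10.12, 11.37 and 11.27 and 9.42 and 8.74. Slc11a1, a metal ion carrier of phagosomes, was 3.58-fold higher (adjusted p = 0.0457, adjusted p = 0.0645 with the replicate block), and Scarb2, a lysosomal receptor, 2.69-fold (adjusted p = 0.0255). Galc, a galactosidase of glycolipids, was at or under background in CD8- cDC (at least 1.32-fold, adjusted p = 0.0249). Macrophages lay above CD8+ cDC for Slc11a1, at 14.25 and 14.32 against 12.99 and 13.15. The same held for Scarb2, at 10.01 and 10.22 in macrophages against 9.31 and 9.16 in CD8+ cDC, and for Galc. Naaa, an amidase of lipid mediators that is also a known CD8+ cDC marker, was at least 6.08-fold higher (adjusted p = 0.0116).

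Of 356 solute carriers of the Slc series, 7 were called higher in CD8+ cDC (1.97%, near the 1.29% of all genes) and 0 in CD8- cDC, with a median of 0.03. Slc8b1, the mitochondrial sodium and calcium exchanger, was bright in both subsets, at 12.89 and 12.95 against 11.15 and 10.87 (3.76-fold, adjusted p = 0.0169). Slc22a5, the carnitine carrier (3.36-fold, adjusted p = 0.0327), and the adjacent Slc22a21 (at least 4.42-fold, adjusted p = 0.0479) were both higher. Slc12a7, a potassium and chloride cotransporter, stood at 6.70 and 7.12 against 4.61 and 4.52, and macrophages at 9.04 and 9.55 (at least 3.15-fold, adjusted p = 0.0263).

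In a list of receptors for purines and lipids, 3 of 56 were called higher in CD8+ cDC and 1 in CD8- cDC. P2ry14, a receptor for UDP sugars, stood at 13.12 and 13.20 against 10.57 and 9.60 (8.43-fold, adjusted p = 0.0342, adjusted p = 0.051 with the replicate block). Lpar6, a receptor for lysophosphatidic acid, stood at 11.30 and 11.51 against 9.80 and 9.78 (3.06-fold, adjusted p = 0.0236), and S1pr2, for sphingosine 1-phosphate, at 8.83 and 9.03 against 7.81 and 7.72 (2.25-fold, adjusted p = 0.0249). On the other side Ptger3, a receptor for prostaglandin E2, was at background in CD8+ cDC replicate 1, at 8.25 and 8.29 in CD8- cDC against 5.05 and 5.56 in CD8+ cDC (at least 7.29-fold, adjusted p = 0.0169). Lpar3, a further lysophosphatidic acid receptor that is not in that list, was also higher in CD8- cDC, at 7.50 and 7.64 against 6.18 and 6.23 (2.58-fold, adjusted p = 0.0169). Glycolysis genes gave 3 of 31 called higher in CD8+ cDC (Hk3, Aldoc and Pgk1), 0 called in CD8- cDC and a median of 0.00. With the replicate block 2 were called higher in CD8+ cDC and 1 in CD8- cDC. At an unadjusted p under 0.05 in limma these counts were 7 and 5. Pgk1, phosphoglycerate kinase, stood at 11.75 and 11.69 against 10.68 and 10.55 (2.15-fold, adjusted p = 0.0228).

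On the CD8- side, interferon-stimulated genes, many of which act against viruses, held the most called members of the 55 lists. Of 58 measured, 9 were called higher in CD8- cDC and 1 in CD8+ cDC, with a median of -0.26, and with the block 9 and 0. Oas2, which makes the second messenger that activates RNase L, stood at 8.55 and 8.47 in CD8- cDC against 4.98 and 5.90 in CD8+ cDC (at least 7.65-fold, adjusted p = 0.03). Ifit3, of a family of interferon-induced antiviral proteins, stood at 10.94 and 11.14 against 7.42 and 8.57 (8.28-fold, adjusted p = 0.0497). Oas1g, of the same family as Oas2, stood at 10.60 and 10.45 against 7.13 and 7.85 (8.19-fold, adjusted p = 0.0206). For Ifit3 and Oas1g macrophages were about as high as CD8- cDC, at 11.36 and 11.71 and 10.44 and 10.54, and CD8+ replicate 2 lay above CD8+ replicate 1. Near-identical copies exist in the Oas1 and Ifit families, so the assignment to 1 member is uncertain.

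The Ifitm genes, which hinder viral entry, are neighbours that were called together: 4 of 6 measured members were called higher in CD8- cDC, and they lie next to each other on chromosome 7. Ifitm6 stood at 12.36 and 12.04 in CD8- cDC against 9.39 and 9.69 in CD8+ cDC (6.32-fold, adjusted p = 0.0181). Ifitm1 stood at 13.35 and 13.31 against 11.07 and 11.33 (4.38-fold, adjusted p = 0.0154), Ifitm3 was 3.39-fold higher (adjusted p = 0.0288) and Ifitm2 3.1-fold (adjusted p = 0.0195). All 4 were bright in both subsets, with no array under 9. Ifi27 (4.45-fold, adjusted p = 0.0249) and Oasl2 (4.89-fold, adjusted p = 0.0249) were higher in CD8- cDC as well. Not all of the list followed. Ly6e, the 1 member called higher in CD8+ cDC, stood at 13.50 and 13.54 in CD8+ cDC against 12.72 and 12.70 in CD8- cDC (1.76-fold, adjusted p = 0.0448, adjusted p = 0.0645 with the replicate block). Isg15 stood at 9.51 and 9.33 against 7.74 and 8.45 and was not called (adjusted p = 0.117), nor was Irf7, the factor that amplifies interferon responses, at 8.14 and 8.49 against 8.39 and 8.48 (adjusted p = 0.944). Ifi205 stood at 12.10 and 12.02 against 9.50 and 8.62, higher in CD8+ cDC but not called (adjusted p = 0.142).

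The promoters of these genes were searched for GAAA, any 2 bases and GAAA on both strands, the core letters of the interferon-stimulated response element, in RefSeq windows of 250 bases before to 50 after the start (GRCm38.p6). The letters occurred in 13 of 114 genes higher in CD8- cDC that had a window (11.4%), in 6 of 193 higher in CD8+ cDC (3.11%) and in 3.99% of all 15237 measured genes with one. The 13 were Arhgap6, BC147527, Haus5, Ifi213, Ifit1bl1, Ifit3, Ifitm2, Ifitm3, Mitd1, Oas1g, Piwil4, Stat4 and Vegfa, of which Arhgap6, Ifi213, Mitd1 and Vegfa lost their call with the replicate block (adjusted p = 0.0714, 0.0503, 0.0559 and 0.0571). In the list of interferon-stimulated genes, called or not, 25 of 44 members with a window held the letters. Of its members called higher in CD8- cDC, 4 of 8 with a window did (Ifit3, Ifitm2, Ifitm3 and Oas1g). The called members were thus no richer in the letters than the list. Whether the CD8- side exceeds all measured genes apart from interferon-induced genes was not tested. A match is a description of the letters and not a site of binding. The 5 windows below are shown as examples with the letters before the start, from interferon-induced genes and Stat4, read in the direction of the gene, with matches in capitals.
Ifit3, chr19:34583348-34583441, + strand: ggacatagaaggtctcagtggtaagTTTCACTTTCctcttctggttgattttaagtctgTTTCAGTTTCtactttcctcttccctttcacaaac
Oas1g, chr5:120887614-120887656, - strand: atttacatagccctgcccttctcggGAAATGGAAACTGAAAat
Ifitm2, chr7:140955973-140956032, - strand: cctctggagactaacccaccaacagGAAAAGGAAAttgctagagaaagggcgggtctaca
Ifi213, chr1:173599311-173599370, - strand: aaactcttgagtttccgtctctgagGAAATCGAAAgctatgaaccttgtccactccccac
Stat4, chr1:52008118-52008177, + strand: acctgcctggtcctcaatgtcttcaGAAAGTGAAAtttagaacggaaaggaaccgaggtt
Ifit3 held 2 separate matches, at 156 and 122 bases before the start. Oas1g held 2 that overlap, at 18 and 12 bases before it. Ifitm3 held its matches after the start. A second pattern, GGAA, any 2 bases and GAAA, the letters of a composite element for Ets factors with Irf4 or Irf8, was found in 4 of 193 genes of the CD8+ side (2.07%), 2 of 114 of the CD8- side (1.75%) and 3.0% of measured genes. The 2 patterns differ in 1 letter and no sequence can match both at the same place on the same strand.

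Several receptors of myeloid cells were called in CD8- cDC. Cd300lf, an inhibitory receptor for lipids of dying cells, stood at 8.32 and 9.14 in CD8- cDC against 5.87 and 5.90 in CD8+ cDC (7.2-fold, adjusted p = 0.0407, adjusted p = 0.0641 with the replicate block). The whole Cd300 family had a median of -1.11 over 8 genes, with 1 called, and Cd300ld passed with the block only (8.75 and 9.50 against 5.8 and 7.10, adjusted p = 0.108, adjusted p = 0.0365 with the replicate block). Lilra6, a leukocyte immunoglobulin-like receptor, stood at 10.06 and 9.95 against 6.93 and 7.68 (6.52-fold, adjusted p = 0.0255), and its close relative Pira2 at 8.02 and 7.91 against 5.75 and 6.38 (3.73-fold, adjusted p = 0.0427). These 2 lie next to each other and belong to a family of near-identical copies, so their separate values are uncertain. Trem3, a receptor of the Trem cluster, stood at 7.47 and 7.78 against 4.95 and 5.59 (at least 4.6-fold, adjusted p = 0.0331), while its neighbour Treml4 differed the other way, as given above. Klrb1f, a lectin-like receptor of the NK gene complex, was at background in CD8+ cDC and macrophages (4.79 and 4.35) and stood at 7.91 and 7.93 in CD8- cDC (at least 6.34-fold, adjusted p = 0.0154). It was the 1 called gene of 28 Ly49 and Klr receptors, 22 of which had a negative difference, with a median of -0.38. Tlr1, the partner of Tlr2 for bacterial lipopeptides, stood at 10.48 and 10.59 against 7.94 and 8.08 (5.75-fold, adjusted p = 0.0195). Unlike for Klrb1f, macrophages lay above CD8- cDC for Lilra6 (11.03 and 11.15), Pira2 (10.37 and 10.61) and Trem3 (7.79 and 8.01). They lay between the subsets for Cd300lf (8.10 and 7.48) and Tlr1 (9.38 and 9.91).

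Tlr5, the receptor for flagellin, was called with the block only, at 7.93 and 8.62 against 5.54 and 6.71 (adjusted p = 0.138, adjusted p = 0.0449 with the replicate block). Tlr7, for single-stranded RNA, leaned to CD8- cDC at 9.41 and 9.98 against 8.27 and 8.03 and missed the threshold in both fits (adjusted p = 0.0548, adjusted p = 0.0786 with the replicate block).

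The following genes, with roles in signalling or ion flow, were among the 20 largest differences of the CD8- side, apart from Hvcn1. Ryr3, a calcium release channel of the endoplasmic reticulum, stood at 9.46 and 9.97 in CD8- cDC against 5.10 and 6.32 in CD8+ cDC (at least 15.2-fold, adjusted p = 0.0399, adjusted p = 0.0525 with the replicate block). Hvcn1, the voltage-gated proton channel, differed less and stood at 10.22 and 10.19 against 9.24 and 8.91 (2.18-fold, adjusted p = 0.0457, adjusted p = 0.0692 with the replicate block). These were 2 of 50 ion channels called, with 0 on the CD8+ side, and neither stayed called with the block. The channels as a list leaned to neither side, with 25 positive and 25 negative differences and a median of 0.00. At an unadjusted p under 0.05 in limma, 5 were higher in CD8+ cDC and 4 in CD8- cDC. Dab2ip, which restrains Ras signalling, stood at 9.86 and 9.79 against 6.38 and 7.22 (8.16-fold, adjusted p = 0.0249). Its level in CD8- cDC was close to that in macrophages (10.04 and 9.94). Rasl12, a small GTPase of the Ras family, stood at 8.15 and 8.53 against 4.56 and 5.64 (at least 7.42-fold, adjusted p = 0.0397), and Bex6, a small protein of the brain-expressed X-linked type, at 10.64 and 10.91 against 6.48 and 7.16 (15.5-fold, adjusted p = 0.0195). Ddit4, an inhibitor of the growth kinase mTORC1, stood at 10.37 and 10.29 against 6.98 and 8.06 and was higher still in macrophages, at 11.08 and 11.40 (7.03-fold, adjusted p = 0.0496). Pram1, an adaptor of myeloid cells, stood at 7.33 and 7.65 against 4.58 and 5.0 (at least 4.72-fold, adjusted p = 0.0299).

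The rest of the top 20 of the CD8- side held genes with less known of them in dendritic cells. Lysmd2 stood at 9.95 and 9.50 in CD8- cDC against 6.74 and 6.90 in CD8+ cDC (7.48-fold, adjusted p = 0.0442, adjusted p = 0.0617 with the replicate block). Ptchd1, a protein with a patched domain, was above background only in CD8- cDC, at 7.12 and 7.01 against 4.44 and 4.54 (at least 3.52-fold, adjusted p = 0.0169). Scel, sciellin of cornified epithelium, was likewise at 6.57 and 7.31 against 4.35 and 4.57 (at least 3.22-fold, adjusted p = 0.0317). Ifit1bl1, next to Ifit3 on chromosome 19, was at least 5.04-fold higher (adjusted p = 0.0171).

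In a list of transcription factors known from dendritic cells, 5 of 78 measured were called higher in CD8- cDC and 0 in CD8+ cDC, with a median of -0.02, and with the block 6 and 2. Transcription factors outside this list were called in CD8+ cDC as well, such as Smad3, which relays TGF-beta signals, at 8.78 and 8.81 in CD8+ cDC against 7.29 and 7.68 in CD8- cDC (2.48-fold, adjusted p = 0.0394, adjusted p = 0.0582 with the replicate block). Tbx21, which encodes T-bet, stood at 7.71 and 7.73 in CD8- cDC against 4.99 and 4.88 in CD8+ cDC (at least 5.52-fold, adjusted p = 0.0119). The 4 arrays of the other populations, CD8+ cDC and macrophages, were at 4.99 and 4.88 and 5.36 and 5.12. Tbx21 is also 1 of the 23 T and NK cell markers, of which 17 had a negative difference and 0 and 6 were higher in CD8+ and CD8- cDC at an unadjusted p under 0.05. Of that list, 12 were above the background level on at least 2 cDC arrays. Ncr1 (4.82 and 4.73) and Eomes (4.56 and 4.50), chosen after their values were seen, were under that level in CD8- cDC and do not stand for the list. Both Eomes probes were under it on all 6 arrays, so Eomes is uninformative here. The part of T and NK cells in the value of Tbx21 was not tested. Stat4, which relays interleukin 12 signals, stood at 9.67 and 9.87 against 8.05 and 8.41 (2.9-fold, adjusted p = 0.0331). Zeb2, a repressor required for several myeloid lineages, stood at 8.64 and 8.74 against 7.51 and 7.52, and macrophages at 10.32 and 10.48 (2.27-fold, adjusted p = 0.0206). Meis1, a homeobox factor of stem cells, was 2.51-fold higher (adjusted p = 0.0171) and the repressor Hic1 2.37-fold (adjusted p = 0.0227). Relb, required for the CD8- subset, was called with the block only, at 11.51 and 11.64 against 9.74 and 10.27 (adjusted p = 0.0586, adjusted p = 0.0352 with the replicate block). Egr3, an early response factor, ran the other way at 10.82 and 9.42 against 7.95 and 6.84 and was called with the block only (adjusted p = 0.27, adjusted p = 0.0295 with the replicate block).

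Enzymes that build glycans gave 3 of 55 called on each side, with a median of -0.11. With the replicate block 3 were called higher in CD8+ cDC and 4 in CD8- cDC. At an unadjusted p under 0.05 in limma the list gave 9 and 17. Galnt10, which starts O-linked chains (2.79-fold, adjusted p = 0.0227), Extl3, of heparan sulfate synthesis (2.33-fold, adjusted p = 0.0379), and Fut8, which adds core fucose (1.88-fold, adjusted p = 0.0299), were higher in CD8+ cDC. B4galt6, of glycolipid synthesis (3.82-fold, adjusted p = 0.0335), Gcnt1, which branches O-linked chains (2.88-fold, adjusted p = 0.0171), and Fut4, a fucosyltransferase of selectin ligands (2.6-fold, adjusted p = 0.0425), were higher in CD8- cDC.

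Of 47 adhesion genes, 4 were called higher in CD8+ cDC (Cadm1, Cd81, Ctnnd1 and Cd44) and 3 in CD8- cDC (Esam, Dscam and Cadm3), and with the replicate block 4 and 1. The adjusted p with the block was 0.0501 for Cd81, 0.0594 for Cd44, 0.0626 for Dscam and 0.0603 for Cadm3. The integrin chains Itga3 (at least 2.31-fold, adjusted p = 0.0226) and Itga1 (at least 1.5-fold, adjusted p = 0.0195) were higher in CD8+ cDC, each from a level close to background. Growth factor genes showed the receptor and a ligand on opposite sides: Flt1 was higher in CD8+ cDC as above, whereas its ligand Vegfa stood at 7.39 and 7.75 in CD8- cDC against 6.0 and 5.86 in CD8+ cDC (3.1-fold, adjusted p = 0.0344, adjusted p = 0.0571 with the replicate block). This rests on 1 probe of each gene. Other Vegfa probes were dimmer and not called, with log2 differences of -0.01 and -0.76 (adjusted p = 0.997 and 0.39). Another Flt1 probe was under background on every array (adjusted p = 0.865).

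Histone genes lay lower in CD8+ cDC as a family, which was noticed after the values were seen. Of 75 measured, 6 were called higher in CD8- cDC (8.0%), 4 with the block, and 0 in CD8+ cDC in either fit. The family median was -0.61, and 62 of 75 differences were negative. H2bc11 stood at 10.05 and 9.88 in CD8- cDC against 8.58 and 8.66 in CD8+ cDC (2.54-fold, adjusted p = 0.0255), H2bc9 at 9.71 and 9.97 against 8.42 and 8.62 (2.49-fold, adjusted p = 0.0419) and H4c18 at 9.14 and 8.94 against 8.06 and 7.98 (2.03-fold, adjusted p = 0.0397). Macrophages were as high as CD8- cDC for H2bc11 (9.95 and 10.20) and H2bc9 (9.66 and 9.93). Copies of histone genes are near-identical, so the members cannot be taken as separate measurements. The list of 55 cell division genes had a median of -0.37 with 0 called by limma (0 and 7 at an unadjusted p under 0.05 on the CD8+ and CD8- side), and Top2a, a topoisomerase of dividing cells, stood at 9.83 and 9.87 against 9.33 and 9.38 (adjusted p = 0.895).

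**Figure D5:**
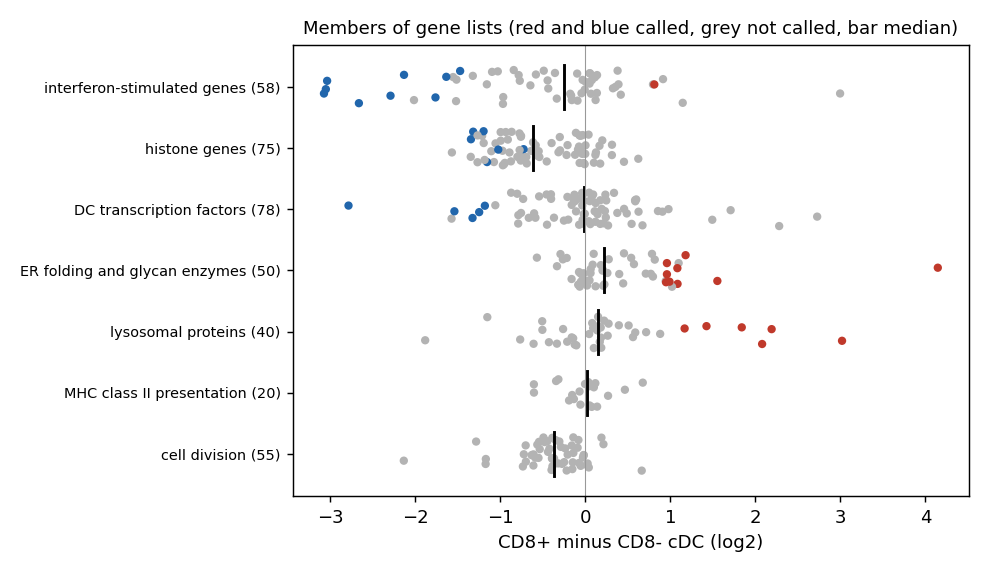
Log2 difference of CD8+ minus CD8- cDC for each measured member of 7 gene lists (number of members in brackets); red and blue points were called higher in CD8+ and CD8- cDC, grey points were not called, and the bar is the list median. Called interferon-stimulated genes lie on the left (9 of 10), called genes of ER folding and lysosomes on the right, and the MHC class II and cell division lists hold no called gene.

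Several lists gave no called gene in either direction with limma: MHC class II presentation (20 genes, median 0.02), oxidative phosphorylation (39, -0.02), chromatin regulators (65, 0.03), complement (27, 0.05), retinoid metabolism (25, -0.04), the circadian clock (21, -0.11) and the TNF superfamily (35, -0.10). Ribosomal proteins (56, 0.00) and proteasome subunits (49, 0.14) did not either. Over these 9 lists together, at an unadjusted p under 0.05, 26 genes were higher in CD8+ cDC and 24 in CD8- cDC, and with the block 1 was called higher in CD8+ cDC and 0 in CD8- cDC. H2-Ab1, a class II chain, stood at 14.08 and 14.31 against 13.99 and 14.20 (adjusted p = 0.933) and Ciita, the class II master regulator, at 12.06 and 12.12 against 12.10 and 12.36 (adjusted p = 0.949). Among genes of MHC class I loading, Tap1, the peptide transporter, stood at 10.37 and 10.64 against 9.46 and 9.71 and was called with the block only (adjusted p = 0.132, adjusted p = 0.0449 with the replicate block).

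The macrophage level was set beside both for the genes that separate the subsets. Of the 245 genes higher in CD8+ cDC, the macrophage mean was at or above the CD8+ mean in 68 and at or below the CD8- mean in 69. Of the 144 genes higher in CD8- cDC, it was at or above the CD8- mean in 30 and at or below the CD8+ mean in 55. The macrophage mean was thus nearer to CD8- than to CD8+ cDC in 137 of the 245, and nearer to CD8+ than to CD8- cDC in 92 of the 144.

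Called genes that adjoin each other among the measured genes shared their direction in 27 of 30 adjacent pairs (order from the RefSeq gene table of GRCm38.p6). The share over all adjacent genes was not computed, and 245 of all 389 called genes were higher in CD8+ cDC. Several pairs belong to the same family, such as Ifit3 with Ifit1bl1, Pira2 with Lilra6 and Slc22a5 with Slc22a21. The count is thus no result about neighbouring genes in general. Beside the Ifitm cluster, the pairs with a shared direction included Enpp4 (4.98-fold, adjusted p = 0.0228) and Enpp5 (4.51-fold, adjusted p = 0.0233), of a family of ecto-phosphodiesterases, both higher in CD8+ cDC. A run of Ppef2, Naaa, Sdad1 and Cxcl9 on chromosome 5 was higher in CD8+ cDC throughout, by 2.94, 2.62, 1.58 and 2.94 log2, where Sdad1 lost its call with the replicate block (adjusted p = 0.0714). Cd4 and the adjacent Gpr162 were both higher in CD8- cDC (at least 2.25-fold and adjusted p = 0.0249 for Gpr162). Trem3 and Treml4 were 1 of the 3 pairs with opposite directions.

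Where a called gene had several probes, they rarely all passed. On the CD8+ side all probes were called in 20 of 162 such genes, and on the CD8- side in 6 of 74, while 0 genes had probes called in opposite directions. Each value above is therefore that of the brightest probe of its gene.

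The replicate block added 62 genes on the CD8+ side and 46 on the CD8- side, and removed 67 and 51. Gpr171, an orphan receptor, stood at 11.04 and 10.03 in CD8+ cDC against 7.38 and 6.11 in CD8- cDC, so that replicate 1 lay above replicate 2 in both subsets, with differences of 3.65 and 3.92 (adjusted p = 0.172, adjusted p = 0.0352 with the replicate block). Fzd1, a Wnt receptor, shared this at 9.26 and 8.38 against 6.08 and 4.52 (adjusted p = 0.106, adjusted p = 0.0295 with the replicate block), as did the apoptosis regulator Bcl2l14 at 9.58 and 8.68 against 6.44 and 5.63 (adjusted p = 0.0686, adjusted p = 0.0261 with the replicate block), although its second probe was called without the block (2.44 log2, adjusted p = 0.0265). On the CD8- side, Ppp1r14a, a phosphatase inhibitor, stood at 11.12 and 10.36 against 8.33 and 7.86 (adjusted p = 0.0514, adjusted p = 0.0295 with the replicate block), and Adgrg6, an adhesion receptor, at 7.71 and 8.31 against 5.33 and 6.03 (adjusted p = 0.0805, adjusted p = 0.0295 with the replicate block).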

How the data were processed

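RNA of splenic CD8+ cDC, CD8- cDC and macrophages (2 arrays each) was amplified and labelled with biotin, per the labels' protocols, and read on Illumina bead arrays. The deposited table of 45281 probes was used as it came: the values were taken as log2 from their range, since the labels state neither base nor normalization. Column medians were 4.71 to 4.72 and the largest gap between sorted columns was 0.0349, so the authors' values look quantile-normalized. Centring and scale beyond this are unknown. BeadStudio and limma are named in the submitters' processing notes, without versions or roles. A second table, with 12 columns whose names match no sample label, was not used.

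Probes were named by GEO's platform annotation: 34885 had 1 symbol, 18 several and 10378 none. All 6 arrays were fitted with lmFit and eBayes in limma 3.58.1 (R 4.3.3), 1 coefficient per group, and CD8+ minus CD8- cDC was adjusted by Benjamini-Hochberg over all probes, with calls at an adjusted p under 0.05. A second fit took the replicate number as a block. Replicate differences correlated at 0.276 between the cDC groups and at 0.403 and 0.264 with macrophages, over probes above background. Since only 2 numbers exist and the labels do not tie them to animals or days, they were not taken to pair the arrays.

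The background level (5.25 log2) is the 99th percentile of 1597 probes of sensory receptor and keratin-associated genes, chosen with the data known. Members, lists and families were chosen with earlier results of these data known. The 55 lists held 2156 genes, of which 1997 were measured. A further 11 families were added after the values were seen. Named genes were the 20 largest called differences on each side with no overlap between arrays, all members of both marker lists, members of the described lists (up to 6 called and 3 not called) and up to 5 each way whose call differed with the block. Not all of these are printed. Other genes printed (C1qb, Cd3e, Cd40, Cd44, Cd79b, Cd80, Ciita, Eomes, H2-Ab1, Ifi213, Ifi27, Ifnlr1, Irf7, Isg15, Lpar3, Mitd1, Ncr1, Sdad1, Siglech, Smad3, Tap1, Top2a and Zbtb46) were chosen after their values were seen. In simulated data with known changes the fit recovered 8 of 50 genes changed by 1 log2 unit, 39 of 50 at 2, 42 of 50 at 3 and 47 of 50 at 4, with 11 false calls among 45281 probes. The simulated noise was independent between arrays and unrelated to level, while replicate differences of the real arrays correlated between groups. These counts therefore need not hold for the real arrays. Alternatives covered the arrays in the fit, the block, filters, normalization, variance model, probe choice and each array left out.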

Additional observations from a re-analysis of the deposited data

How the results depend on the processing

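The counts of 245 genes higher in CD8+ cDC and 144 higher in CD8- cDC moved with the model of the spread. They were 116 and 59 with only the 4 cDC arrays, 384 and 326 when probes had to be above background on 2 arrays, 24 and 9 with values floored at the background level, 379 and 339 with a variance trend, and 0 and 0 with the replicate block and only the 4 cDC arrays (1727 and 1778 at an unadjusted p under 0.05 in limma). Adjusted over 1 probe per gene they were 325 and 229. With 1 array left out at a time they ranged from 0 to 116 and from 0 to 59, the upper ends without a macrophage array. In CD8+ replicate 1 against CD8- replicate 2, a choice made after seeing the data, they were 0 and 0. The replicate block alone gave 240 and 139, robust variances 195 and 108, a second quantile normalization 244 and 144, centring 243 and 143, and the probe brightest in cDC 244 and 145. The cause of these changes was not tested.

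The arrays of called genes do not overlap between the subsets, so leaving out arrays could not reverse their direction. Of the 118 called genes that the text or a figure shows, all kept their direction under every alternative that gave them a value (the filter on dim probes gave none to Cd8a, Eomes and Ncr1, which were not called). Their calls were lost in 21 with the replicate block, 61 with only the 4 cDC arrays or without a macrophage array, 110 with floored values, 20 with robust variances, and all 118 with any cDC array left out, with the block on the 4 cDC arrays or in CD8+ replicate 1 against CD8- replicate 2. Genes that were not called and changed sign were the following. With 1 array left out the log2 difference ranged from -0.0843 to 0.0224 for Batf3, from -2.24 to 1.66 for C1qb, from -1.37 to 0.246 for Cd3e, from -0.381 to 0.181 for Cd40, from -0.0987 to 1.37 for Cd79b, from -0.0145 to 0.217 for H2-Ab1, from -0.0532 to 0.297 for Irf7 and from -0.215 to 2.15 for Siglech. In CD8+ replicate 1 against CD8- replicate 2 it was 0.0155 for Batf3, 0.812 for Cd3e, -0.0793 for Cd80, -0.118 for H2-Ab1 and -0.0981 for Irf7. Of the 55 list medians, 21 to 25 moved by more than the replicate spread when a cDC array was left out, and 29 when dim probes were filtered. Replicate numbers were not shown to pair the arrays: the correlations of replicate differences between groups were 0.264 to 0.403, but the labels do not say what a number shares and there are only 2. With 2 arrays a group, the number of arrays limits the precision, and genes at background have no fold.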
